A study of Mus musculus with 4 samples.

Results

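The genes described here encode the subunits of the receptors for glutamate, the main excitatory transmitter of the brain, and for GABA, the main inhibitory one. They were taken by symbol from count tables of 55471 genes, and 38 rows matched. Of these, 37 are protein-coding: 4 AMPA, 5 kainate and 7 NMDA receptor subunits, 7 metabotropic glutamate (mGlu) receptors, 12 GABAA subunits and 2 GABAB subunits. The remaining row is the antisense RNA Grin1os, which was listed at a count of 0 in every library. Enough counts for a test were found for 35 of the 37 genes. Grm6, an mGlu receptor known from the retina, had a count of 0 in all 4 libraries, and Grin3b, a GluN3 subunit, had 17 counts in mock replicate 1 and 0 in the other libraries.

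AMPA, kainate and NMDA receptors are channels built of 4 subunits that open when glutamate binds, and the choice of subunit sets their calcium permeability and kinetics. GABAA receptors are chloride channels built of 5 subunits, most often from alpha, beta and gamma members, whereas mGlu and GABAB receptors act through G proteins. Neurons carry nearly all of these classes at their synapses, and astrocytes are known for Grm3, Grm5 and some GABA receptor subunits.

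The libraries came from mice of the genotype GFAP-Cre+/- Rpl22HA/wt, in which Cre under the GFAP promoter switches on an HA tag on 1 allele of the ribosomal protein gene Rpl22. RNA bound to HA-tagged ribosomes was pulled down from lysate and sequenced, in 2 libraries labelled cuprizone and 2 labelled mock, so the genotype and the pull-down are shared by all 4. Cuprizone is a copper chelator that causes loss of oligodendrocytes and myelin. According to the design text, male mice aged between 8 and 9 weeks received 0.2% cuprizone in chow or a normal diet, and the corpus callosum was dissected at 5, 5.5 and 7 weeks. The sample labels instead give brain as the tissue and 3 weeks as the time for all 4 libraries. These statements differ, and the time is kept here as the sample labels have it. Neither the Cre line nor the number of animals behind a library is given by the labels, so p-values measure only the spread between these libraries.

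Library totals ran from 21209517 to 23822620 counts, where 3 counts, the most that a count of 0 allows, are worth 0.126 to 0.141 CPM (counts scaled to a common library total). The labelled cell type is astrocytes, but neuronal RNA was abundant: Snap25, a synaptic vesicle fusion protein of neurons, stood at 8292 to 10008 CPM, and Gfap, the filament protein whose promoter drives Cre, at 385 to 963 CPM. All 12 astrocyte markers were detected in every library. The level of Rpl22 itself was 34.8 CPM ± 10.4 (SD, n = 2) with cuprizone and 40.4 CPM ± 0.348 (n = 2) without it. Cuprizone replicate 2 stood apart. Its 9 markers of cerebellar granule cells summed to 2204 CPM, against 231 in cuprizone replicate 1 and 89.9 and 69.6 in mock replicates 1 and 2. Gabra6, the GABAA subunit that defines granule cells, was at 214 CPM there, at 11.8 CPM in cuprizone replicate 1 and at 0 counts in both mock libraries. Mitochondrially encoded genes took 0.00316% to 0.00327% of the cuprizone counts and 0.0503% to 0.0517% of the mock counts. The part of either difference in the results below was not tested, and folds without cuprizone replicate 2 are given further on for the subunits they move most.

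Receptor subunit RNA was lower in the cuprizone libraries in 5 of the 6 classes. Summed over the 37 genes it came to 2408 and 1942 CPM in cuprizone replicates 1 and 2 and to 3662 and 4033 CPM in mock replicates 1 and 2, a ratio of cuprizone to mock means of 0.565. Of the 35 tested genes, 31 had a log2 fold (cuprizone over mock) below 0, where 49.9% of the 15816 genes tested in all did. The median log2 fold was -0.67, beside 0.00 over all tested genes. The lower sums belonged to the AMPA, NMDA, mGlu, GABAA and GABAB genes, and the kainate sum overlapped between groups. All libraries hold RNA pulled down from lysate. Fewer cells of a type, less RNA per cell and a difference in what the pull-down took along therefore cannot be told apart.

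No single subunit passed the edgeR quasi-likelihood test at a Benjamini-Hochberg adjusted p of 0.05 over all tested genes, in either direction. That threshold was passed by 0.0506% of all tested genes downward and 0.0316% upward. An unadjusted p under 0.05 was reached by 18 subunits, all lower in cuprizone, and by 7.03% of all genes in that direction, and by 0 subunits and 5.73% of all genes in the higher direction. DESeq2 called 12 subunits lower (among them Gria1, Gria2, Gria3, Grin2a, Grin2b, Grm3, Grm5, Gabra2, Gabrb1, Gabrg1 and Gabbr2) and 0 higher, beside 2.84% and 1.83% of all genes it could adjust, whereas limma-voom called 0 beside 0.24% and 0.0569%. The CPM values of the groups did not overlap for 22 subunits that were lower and for 2, Grik3 and Grin2d, that were higher, beside 18.9% and 25.7% of all tested genes. Without cuprizone replicate 1, edgeR called 5 subunits lower (Gria1, Gria2, Grin2a, Grin2b and Gabra2), where 0.414% of all genes were called in that direction. On the higher side it then called 0 subunits and 0.303% of all genes. Without cuprizone replicate 2 it called 0 subunits in either direction, with 0.1% of all genes called lower and 0.0529% higher, and the median log2 fold of the subunits was -0.67. With no filter on low counts edgeR called 4 subunits lower (Gria1, Gria2, Grin2a and Grin2b), beside 0.588% of all genes lower and 0.181% higher. With a minimum mean CPM of 1 it called 2 (Gria1 and Grin2a), beside 0.385% and 0.0998%, and with bias-adjusted dispersions 0, beside 0.291% and 0.0695%. The median moved most without mock replicate 2, to -0.42, with 26 of 36 folds below 0.

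**Figure D1:**
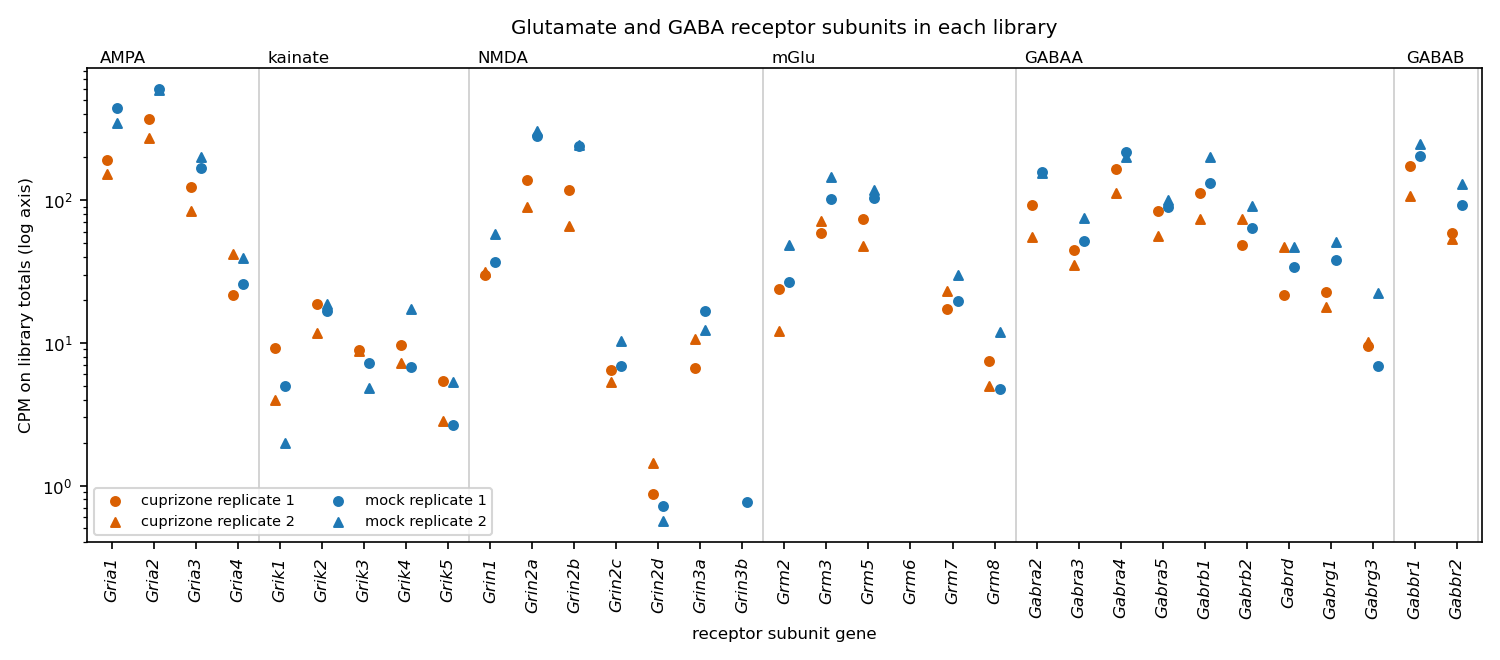
Level of subunit genes in each library, in CPM on library totals (log axis), grouped by receptor class; each point is 1 library, and counts of 0 are not drawn. Gria1, Gria2, Grin2a and Grin2b lay between 65.6 and 368 CPM in cuprizone and between 239 and 596 CPM in mock libraries, while the 5 kainate genes lay under 20 CPM in all libraries.

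**Figure D2:**
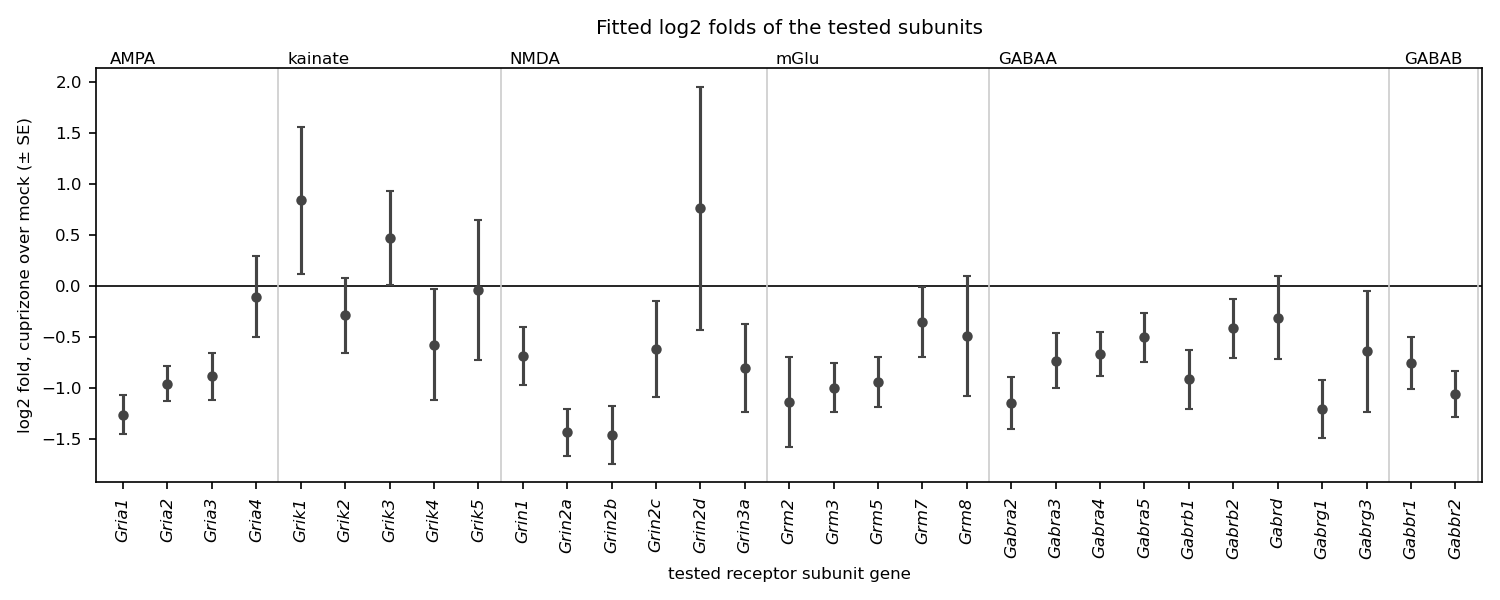
Fitted log2 fold of tested subunits, cuprizone over mock, with its SE (bars), by receptor class. Most genes lay below 0, and Grik1, Grik3 and Grin2d lay above 0 with SE values of 0.46 to 1.19.

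The AMPA receptor genes, which carry fast excitatory transmission, summed to 705 and 551 CPM in cuprizone and to 1228 and 1175 CPM in mock libraries, a ratio of 0.523. Gria1 encodes GluA1, the subunit brought to synapses during long-term potentiation. It stood at 192 and 152 CPM in cuprizone and at 439 and 346 CPM in mock libraries, so that the groups were well apart. Its log2 fold was -1.26 (SE 0.19, edgeR adjusted p = 0.120), the smallest unadjusted p of all the subunits, 0.000508. Gria2 encodes GluA2, whose edited form keeps calcium out of the channel. It stood at 368 and 274 CPM in cuprizone and 596 and 591 CPM in mock libraries, with a log2 fold of -0.96 (SE 0.17, edgeR adjusted p = 0.136). Gria3, on the X chromosome, encodes GluA3 and stood at 124 and 83.9 CPM against 167 and 199 CPM, with a log2 fold of -0.89 (SE 0.23, edgeR adjusted p = 0.231). Gria4, the remaining subunit of the class, differed little between group means, at 21.6 and 41.8 CPM in cuprizone and 25.9 and 39.2 CPM in mock libraries. Leaving out cuprizone replicate 2 took its log2 fold from -0.11 to -0.67, and leaving out cuprizone replicate 1 took it to 0.30.

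Per kilobase of exon, Gria1 had the highest level of any subunit gene over the 4 libraries, 46.7 CPM per kb, followed by Grm3 at 30.9 and Gria2 at 29.4. The Gria2:Gria1 ratio per kb was 0.744 and 0.702 in cuprizone and 0.528 and 0.665 in mock libraries. The share of Gria1 in the AMPA genes, per kb, was 43.9% ± 0.789 (SD, n = 2) against 51.0% ± 5.63 (n = 2), cuprizone against mock. These values do not overlap, but the smallest 2-sided p that an exact permutation test of 2 libraries against 2 can give is 1 in 3, so shares and sums carry no test.

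The NMDA receptor genes had the lowest ratio of the classes, 0.417, with summed levels of 301 and 203 CPM in cuprizone and 583 and 626 CPM in mock libraries. NMDA receptors pass calcium when glutamate arrives at a depolarised membrane, and each needs GluN1 together with GluN2 or GluN3 subunits. Grin2a encodes GluN2A, the main partner of GluN1 in the adult forebrain, and stood at 139 and 88.8 CPM in cuprizone and 282 and 303 CPM in mock libraries. Its log2 fold was -1.44 (SE 0.23, edgeR adjusted p = 0.124). Grin2b encodes GluN2B, which dominates in the young brain and stays on in adult cortex and hippocampus. It stood at 118 and 65.6 CPM against 239 and 242 CPM, with a log2 fold of -1.46 (SE 0.28, edgeR adjusted p = 0.152), the lowest log2 fold of the 35 subunits. Over the 15 alternative fits the adjusted p ran from 1.45e-07 to 0.368 for Grin2a and from 3.46e-06 to 0.368 for Grin2b, the lowest of each being from DESeq2, and every one of these folds was below 0.

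Grin1, which encodes the obligatory GluN1 subunit, lay closer between groups than Grin2a and Grin2b. It stood at 30.1 and 31.5 CPM in cuprizone and 37.1 and 57.6 CPM in mock libraries, with a log2 fold of -0.69 (SE 0.28, edgeR adjusted p = 0.391). The gap between 31.5 and 37.1 CPM was smaller than the spread within the mock pair. Per kb, the Grin2a:Grin1 ratio was 2.49 and 1.52 in cuprizone and 4.11 and 2.85 in mock libraries, and the Grin2b:Grin1 ratio was 1.53 and 0.812 against 2.52 and 1.64. Both ratios were thus lower in cuprizone without overlap, while the Grin2a:Grin2b ratio was 1.63 and 1.88 against 1.63 and 1.73. A caution applies to the level of Grin1: 13.5% of its exonic bases also belong to Grin1os on the other strand, and the strand setting of the counting is not given in the sources used here.

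The scarcer NMDA subunits did not share a direction. Grin2c, the GluN2C subunit of cerebellar granule cells and some astrocytes, had a log2 fold of -0.62 (SE 0.47), and Grin3a, which encodes the GluN3A subunit that lowers calcium flow, one of -0.80 (SE 0.43). Grin2d, the GluN2D subunit of interneurons and the brainstem, had 19 and 34 counts in cuprizone and 16 and 12 in mock libraries, and a log2 fold of 0.76 (SE 1.19). Within the GluN2 genes, the share of Grin2a per kb was 55.6% and 55.9% in cuprizone and 58.6% and 58.7% in mock libraries. As a share of counts, not divided by length, it was 52.5% and 55.1% against 53.3% and 54.5%, which overlap. The share of Grin2c per kb was 9.23% and 11.9% against 5.12% and 7.16%, higher in cuprizone although its level was lower. These shares rest on 127 to 220 counts of Grin2c per library and, as said above, carry no test.

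**Figure D3:**
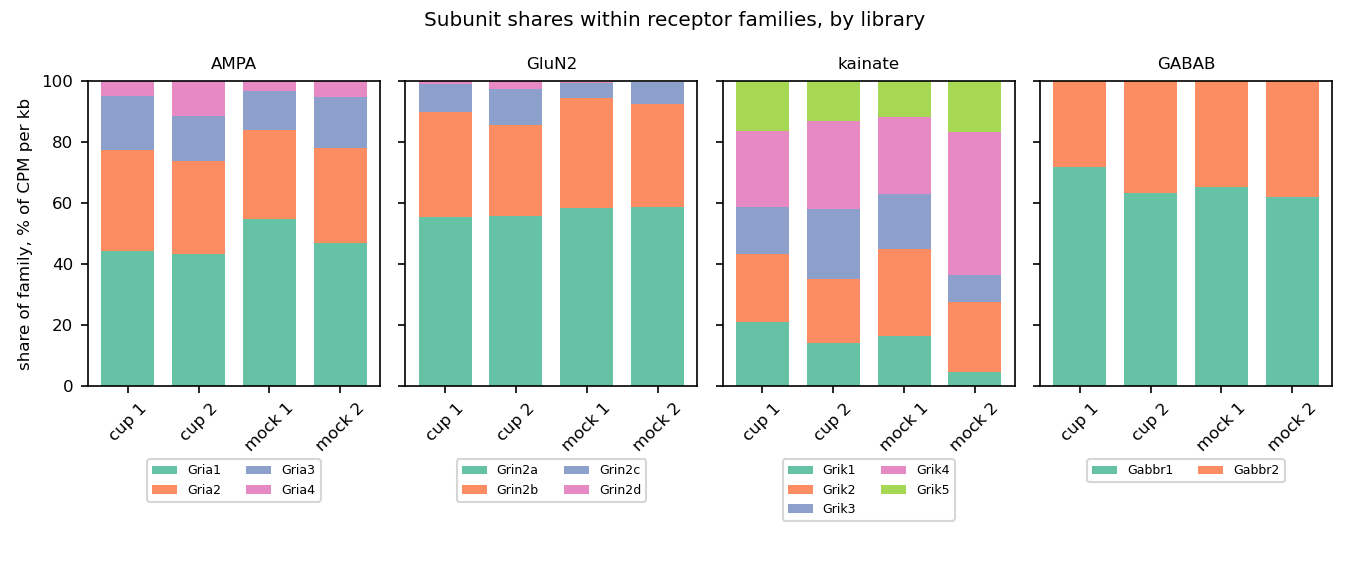
Share of each subunit in its receptor family in each library (cup, cuprizone), from CPM per kb of exon, stacked to 100%. Gria1 took 43.4% to 44.5% of the AMPA genes in cuprizone and 47.0% to 55.0% in mock libraries, and Grin2c took 9.23% and 11.9% of the GluN2 genes in cuprizone and 5.12% and 7.16% in mock libraries.

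The kainate receptor genes, which act at both sides of synapses, were the exception among the classes. Their sum was 51.8 and 34.5 CPM in cuprizone and 38.4 and 48.0 CPM in mock libraries, a ratio of 0.998. The median log2 fold was -0.04, but it was -0.57 without cuprizone replicate 1, 0.34 without cuprizone replicate 2 and 0.03 when libraries were scaled by their totals alone. Grik4, which encodes GluK4, a subunit with high affinity for kainate, stood at 9.62 and 7.22 CPM in cuprizone and 6.74 and 17.2 CPM in mock libraries, with a log2 fold of -0.58 (SE 0.54). Grik2, which encodes the main channel-forming subunit GluK2, stood at 18.8 and 11.7 CPM against 16.8 and 18.6 CPM, with a log2 fold of -0.29 (SE 0.37). Grik3, which encodes GluK3, was the only one whose groups did not overlap, at 8.88 and 8.73 CPM in cuprizone and 7.24 and 4.86 CPM in mock libraries. Its log2 fold was 0.47 (SE 0.46, edgeR adjusted p = 0.765). Grik1 (GluK1) and Grik5 (GluK5) had log2 folds of 0.84 (SE 0.72) and -0.04 (SE 0.68). At these levels, with 42 to 410 counts per gene and library, all 5 SE values were between 0.37 and 0.72, wider than the 0.17 of Gria2.

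The mGlu receptor genes summed to 194 and 202 CPM in cuprizone and 277 and 375 CPM in mock libraries, a ratio of 0.607, and their median log2 fold was -0.71. Leaving out mock replicate 2 took that median to -0.31. Group II receptors lower cyclic AMP and sit on presynaptic endings and, for Grm3, on astrocytes. Grm3 stood at 58.4 and 71.4 CPM in cuprizone and 102 and 145 CPM in mock libraries, with a log2 fold of -0.997 (SE 0.24, edgeR adjusted p = 0.200). Its relative Grm2 stood at 23.9 and 12.2 CPM against 26.8 and 48.8 CPM, with a log2 fold of -1.14 (SE 0.44, edgeR adjusted p = 0.362). The groups did not overlap for either gene, but for Grm2 the gap between 23.9 and 26.8 CPM was smaller than the spread within each group.

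Group I receptors signal through phospholipase C and intracellular calcium. Grm5, found on postsynaptic membranes and on young astrocytes, stood at 73.2 and 47.9 CPM in cuprizone and 103 and 118 CPM in mock libraries, with a log2 fold of -0.94 (SE 0.25, edgeR adjusted p = 0.233). The presynaptic group III receptors Grm7 and Grm8 had log2 folds of -0.35 (SE 0.35) and -0.49 (SE 0.59), with overlapping groups.

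All 12 GABAA subunit genes had a log2 fold below 0, with a median of -0.66, and the groups did not overlap for 9 of them. Over all tested genes, groups lay apart on the lower side for 18.9% and on the higher side for 25.7%. Their sum was 924 and 792 CPM in cuprizone and 1240 and 1433 CPM in mock libraries, a ratio of 0.642. The alpha subunits set where a receptor sits and its response to benzodiazepines. Gabra2, whose product is common in forebrain and on axon initial segments, had the lowest fold among them, with 91.7 and 55.3 CPM in cuprizone and 157 and 154 CPM in mock libraries. Its log2 fold was -1.15 (SE 0.26, edgeR adjusted p = 0.192), and its share of the alpha genes per kb was 11.9% and 9.51% against 15.8% and 14.6%. Gabra4, whose product joins delta in receptors outside synapses, stood at 164 and 111 CPM in cuprizone and 217 and 199 CPM in mock libraries, with a log2 fold of -0.67 (SE 0.22, edgeR adjusted p = 0.292).

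Gabra3, known from the brainstem and deep cortex, stood at 44.97 and 35.3 CPM in cuprizone and 51.7 and 75.2 CPM in mock libraries, with a log2 fold of -0.73 (SE 0.27, edgeR adjusted p = 0.335). Gabra5, the alpha subunit best known from hippocampus, stood at 83.7 and 56.1 CPM against 89.5 and 99.4 CPM, with a log2 fold of -0.51 (SE 0.24, edgeR adjusted p = 0.451). For Gabra3 the gap between 44.97 and 51.7 CPM was smaller than the spread within each group. The same held for Gabra5, between 83.7 and 89.5 CPM.

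Among the beta subunits, which form part of the GABA binding site, Gabrb1, also known from astrocytes, stood at 112 and 73.2 CPM in cuprizone and 131 and 202 CPM in mock libraries, with a log2 fold of -0.92 (SE 0.29, edgeR adjusted p = 0.283). The gap between 112 and 131 CPM was smaller than the spread within each group. Gabrb2, a widespread beta subunit of the adult brain, overlapped between groups and had a log2 fold of -0.42 (SE 0.29). Gabrg1, a gamma subunit with known expression in astrocytes, had the lowest log2 fold of the class, -1.21 (SE 0.29, edgeR adjusted p = 0.198), with 22.7 and 17.7 CPM in cuprizone and 38.0 and 50.8 CPM in mock libraries. Gabrg3, a rare gamma subunit, varied within the mock pair, at 6.83 and 22.4 CPM, and its log2 fold of -0.64 (SE 0.59) was 0.48 without mock replicate 2.

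Gabrg1, Gabra2, Gabra4 and Gabrb1 sit side by side on chromosome 5, from 70751047 to 72149037 on GRCm38.

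The 250 bases before the annotated start are printed for Gria2, Gabra2 and Gabrg1, the 3 genes with the smallest unadjusted p among those with a RefSeq promoter window (GRCm38.p6) that overlaps no annotated exon. Gabrg1 and Gabra2 are neighbours on chromosome 5 and differ widely in the GC content of these bases, while Gria2 and Gabra2 are closer in it. Any link between this composition and the folds was not tested. All 3 lie on the minus strand, at chr3:80802836-80803085 for Gria2, chr5:71095850-71096099 for Gabra2 and chr5:70842618-70842867 for Gabrg1, and capitals mark a GC box (GGGCGG, or CCGCCC on the other strand).
Gria2: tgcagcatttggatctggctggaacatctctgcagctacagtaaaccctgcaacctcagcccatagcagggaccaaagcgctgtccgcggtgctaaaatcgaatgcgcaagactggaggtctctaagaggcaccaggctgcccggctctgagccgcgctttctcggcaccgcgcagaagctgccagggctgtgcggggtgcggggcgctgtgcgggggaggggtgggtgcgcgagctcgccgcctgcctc
Gabra2: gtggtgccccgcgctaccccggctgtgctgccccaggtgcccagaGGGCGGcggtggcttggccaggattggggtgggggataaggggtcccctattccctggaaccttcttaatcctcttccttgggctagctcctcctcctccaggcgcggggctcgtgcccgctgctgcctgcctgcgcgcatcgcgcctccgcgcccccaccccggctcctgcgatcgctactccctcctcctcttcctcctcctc
Gabrg1: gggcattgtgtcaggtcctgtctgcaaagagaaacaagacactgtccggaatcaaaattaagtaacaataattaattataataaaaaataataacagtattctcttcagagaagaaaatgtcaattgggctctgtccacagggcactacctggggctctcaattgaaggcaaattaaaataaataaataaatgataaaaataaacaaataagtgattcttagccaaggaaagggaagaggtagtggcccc
GC content was 64.8% for Gria2, 70.0% for Gabra2 and 35.6% for Gabrg1, with 19, 18 and 1 CG pairs. A GC box was present at 205 bases before the start of Gabra2 and was not in the windows of the other two. Over all genes, 32.7% of 32851 windows of this length held a GC box. Windows were given for 25 of the 37 subunit genes, some with more than 1 window, and 15 of their 32 windows (46.9%) held a GC box. The 14 genes with such a window include Gabra2, Gabbr2 and Grm3, but also Grik3 and Grm7. The cyclic AMP response element TGACGTCA was in 0 of the 32 subunit windows and in 1.55% of all windows. These matches describe letters only.

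GABAB receptors work as a pair of a GABA-binding and a G protein-coupling subunit. Gabbr1, the binding subunit, stood at 173 and 107 CPM in cuprizone and 202 and 247 CPM in mock libraries, with a log2 fold of -0.75 (SE 0.26, edgeR adjusted p = 0.311). Gabbr2, the coupling subunit, stood at 58.7 and 53.2 CPM against 92.5 and 129.7 CPM, with a log2 fold of -1.06 (SE 0.22, edgeR adjusted p = 0.181). Both were lower in each cuprizone library than in each mock library. For Gabbr1, however, the gap between 173 and 202 CPM was smaller than the spread within each group. Per kb, the Gabbr1:Gabbr2 ratio was 2.54 and 1.73 in cuprizone and 1.88 and 1.64 in mock libraries, which overlap.

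The spread within the cuprizone pair had a pattern of its own. Cuprizone replicate 2 was below replicate 1 for most subunits. Among the largest ratios of replicate 2 to replicate 1 were those of Gabrd (2.16), Gria4 (1.94), Grin2d (1.64), Grin3a (1.61) and Gabrb2 (1.51), which were singled out after their values were seen. Gabrd encodes the delta subunit of receptors outside synapses, which cerebellar granule cells also carry. It stood at 21.7 and 46.8 CPM in cuprizone and 34.1 and 47.1 CPM in mock libraries. Its log2 fold was -0.31 (SE 0.41) with all libraries, -0.99 without cuprizone replicate 2 and 0.14 without replicate 1. The same library held the granule cell markers described above. The part of those cells in these values was not tested.

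Leaving out cuprizone replicate 2 moved other folds in both directions. Log2 folds came nearer to 0 for Grin2b (from -1.46 to -1.11), Grin2a (from -1.44 to -1.16), Gabra2 (from -1.15 to -0.84), Gabrb1 (from -0.92 to -0.65) and Gria3 (from -0.89 to -0.64). The move was over 1.5 times for Grm2 (from -1.14 to -0.74), Gabbr1 (from -0.75 to -0.45), Gabra4 (from -0.67 to -0.42), Gabra5 (from -0.51 to -0.25), Grm8 (from -0.49 to -0.23) and Grin2d (from 0.76 to 0.35). Folds moved away from 0 for Grin3a (from -0.80 to -1.20), Gabrb2 (from -0.42 to -0.76), Grm7 (from -0.35 to -0.59) and Grik1 (from 0.84 to 1.31). The sign turned for Grik5 (from -0.04 to 0.34), and Grik2 went from -0.29 to 0.0026.

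**Figure D4:**
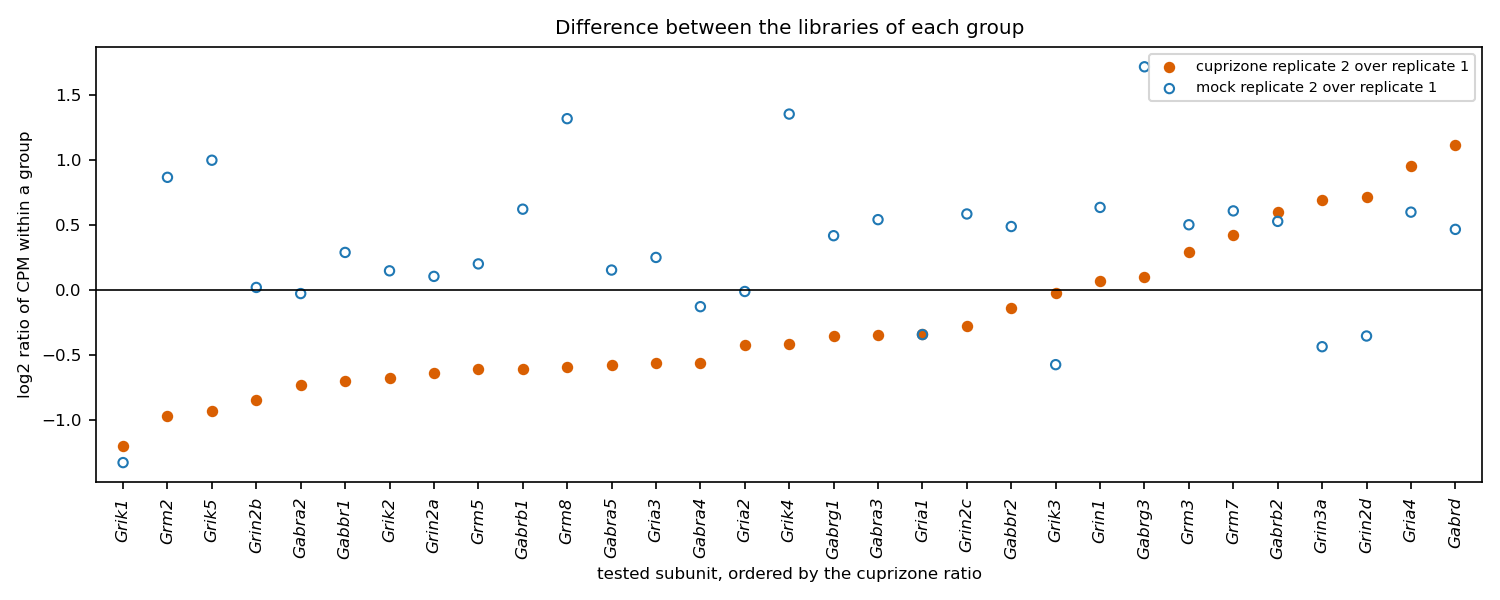
Log2 ratio of CPM between the libraries of each group, replicate 2 over replicate 1, for tested subunits in the order of the cuprizone ratio. Gabrd and Gria4 had cuprizone ratios of 1.11 and 0.95, whereas mock ratios ranged from -1.33 for Grik1 to 1.72 for Gabrg3.

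Folds were lower among abundant subunits. Of the 25 subunits with a mean of at least 20 CPM, 24 had a log2 fold below 0, with a median of -0.89. Over all genes at that level, 50.1% of 7374 were below 0. Of the 10 rarer subunits, 7 were below 0. Subunit genes are long, with a median exonic length of 6721 bases against 4132 bases over all tested genes. Among genes longer than 5000 bases the median log2 fold was 0.11 over all 6225 genes and -0.66 over the 30 subunits. With each library's trend on length taken out, the median was -0.77 over the subunits and -0.06 over all tested genes.

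Marker sums did not all follow the receptors. The 10 neuron markers summed to 15825 and 15564 CPM in cuprizone and 13659 and 14166 CPM in mock libraries, and 6 of the 10 had a log2 fold above 0. Snap25 made up most of that sum: without it, an alternative chosen after seeing the data, the other 9 markers summed to 5925 and 5556 CPM in cuprizone and 5367 and 5869 CPM in mock libraries, and the groups overlapped. Relative to 1000 CPM of these markers, the receptor sum was 152 and 125 CPM in cuprizone and 268 and 285 CPM in mock libraries, a ratio of 0.501, and of 0.552 without Snap25. By class, with Snap25, that ratio ran from 0.369 for NMDA and 0.463 for AMPA to 0.885 for kainate genes. Within the list, Syt1, a calcium sensor of vesicle release, and Thy1, a neuronal surface protein, had log2 folds of -0.52 and -0.82. The highest log2 folds of the list were 0.45 for Rbfox3 and 0.39 for Eno2. Groups lay apart on the lower side for 2 of the 10 markers and on the higher side for 5. Over all tested genes these shares were 18.9% and 25.7%. The 8 markers of cortical excitatory neurons had a summed ratio of 1.07, with overlapping groups. A single marker made up most of that sum. Of the 8 log2 folds, 5 were below 0 and 3 above, with a median of -0.05.

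The 12 astrocyte markers summed to 5634 and 6181 CPM in cuprizone and 9338 and 8952 CPM in mock libraries, with 10 of 12 log2 folds below 0 and none of the markers at 0 counts. The groups lay apart on the lower side for 6 of the 12. They overlapped for Aldh1l1, Gja1, Gjb6 and Aqp4, with log2 folds of -0.10, -0.18, -0.23 and -0.34, and Sox9 and Slc4a4 had folds of 0.16 and 0.05. Gfap averaged 418 CPM ± 47.1 (SD, n = 2) against 917 CPM ± 65.3 (n = 2), with a log2 fold of -1.20 (SE 0.15, edgeR adjusted p = 0.0838). The 5 markers of oligodendrocyte precursors, cells that also carry glutamate and GABA receptors, summed to 21.3 and 37.0 CPM against 65.2 and 67.8 CPM, with 5 of 5 log2 folds below 0 and none at 0 counts. Sums of some other cell types were also lower. The 9 microglia markers summed to 20.1 and 17.9 CPM against 29.3 and 42.4 CPM, with 8 of 9 log2 folds below 0, and Cx3cr1 and Aif1 were at 0 counts in both cuprizone libraries. The 7 markers of pericytes and fibroblasts summed to 16.4 and 16.2 CPM against 52.6 and 27.5 CPM. Of these, Kcnj8 was at 0 counts in all libraries. Only 4 of the 7 had enough counts for a test, with 3 log2 folds below 0. Pdgfrb went the other way, at 4.31 and 3.61 CPM against 2.53 and 1.27 CPM, with a log2 fold of 0.98. The 8 oligodendrocyte markers overlapped in sum, at 9529 and 12730 CPM against 12257 and 14243 CPM, and Mbp, a myelin protein, had a log2 fold of -1.06. The part of these cell types in the receptor values was not tested. Of the 6 subunit genes known from astrocytes (Grm3, Grm5, Grin2c, Gabrg1, Gabrb1 and Gabbr1), all had log2 folds below 0, with a median of -0.93, and all had groups apart on the lower side, beside 18.9% of all tested genes. For Grin2c, Gabrb1 and Gabbr1 the gap between groups was smaller than the spread within each group. Grin2c stood at 6.46 and 5.33 CPM in cuprizone and 6.92 and 10.4 CPM in mock libraries. The other 29 tested subunits had 25 folds below 0, 16 with groups apart on the lower side, and a median of -0.58, and the difference was not tested. It was not seen without cuprizone replicate 2, where the median was -0.665 for the 6 genes and -0.675 for the other 29.

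**Figure D5:**
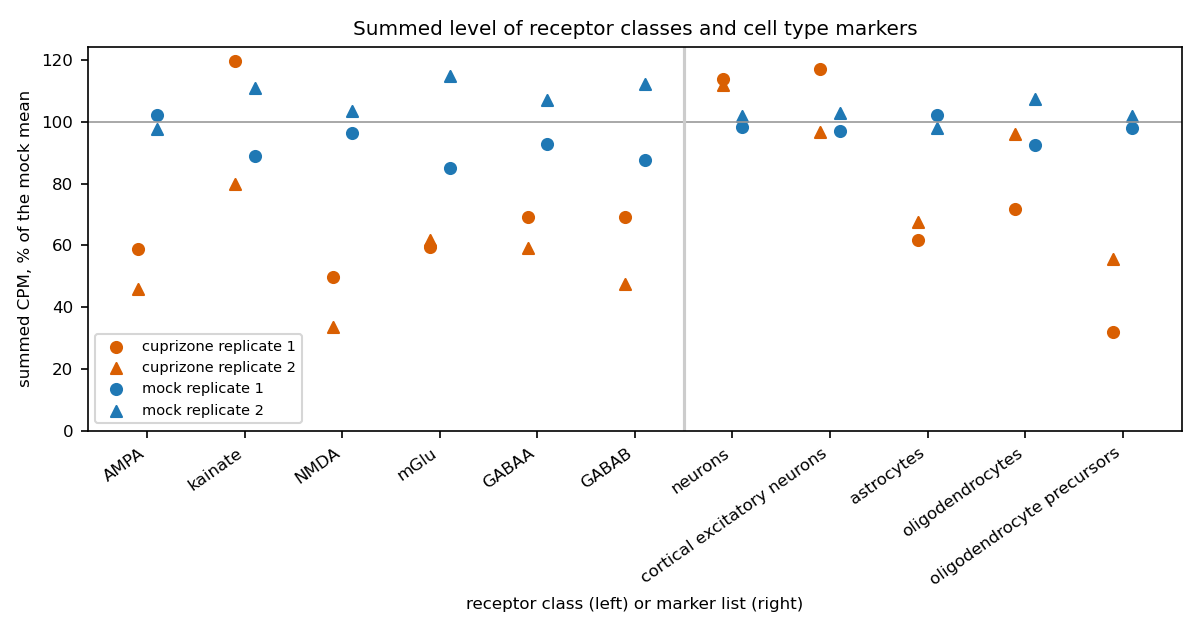
Summed CPM of the 6 receptor classes (left) and of 5 marker lists (right) in each library, as a percentage of the mean of the mock libraries. The NMDA genes stood at 49.8% and 33.6% in the cuprizone libraries and the neuron markers at 114% and 112%, while kainate genes overlapped between groups.

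Except for kainate receptors, the lists of proteins that assemble, traffic and anchor these receptors had medians nearer to 0 than their receptor class. The difference was not tested. No gene of the lists below passed the edgeR test, and counts under an unadjusted p of 0.05 are given instead, beside the same 7.03% lower and 5.73% higher of all genes. Of 18 tested auxiliary and assembly proteins of AMPA receptors, 4 had such a p on the lower side and 0 on the higher side, with a median log2 fold of -0.33 and a summed ratio of 0.829. Olfm1, a secreted protein that binds AMPA receptors and the most abundant of these, stood at 459 and 329 CPM in cuprizone and 532 and 639 CPM in mock libraries, with a log2 fold of -0.64 (SE 0.20, edgeR adjusted p = 0.270). Of 10 tested GABAA anchoring and assembly genes, 3 had such a p on the lower side and 1 on the higher side, with a median of -0.17. Gabarap, a trafficking protein and the most abundant of these, had a log2 fold of -0.26 (SE 0.14, edgeR adjusted p = 0.534).

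The 4 mGlu partners had a median log2 fold of -0.05 with 0 genes under an unadjusted p of 0.05, and Ncdn, a neuronal protein that binds Grm5, stood at 880.4 and 1065 CPM in cuprizone and 975 and 922 CPM in mock libraries. The 4 auxiliary subunits of GABAB receptors had a median of -0.18, with 0 on the lower side and 1 on the higher side, and Kctd16 had a log2 fold of -0.34 (SE 0.29). The 4 G protein-gated potassium channel genes, which GABAB receptors open, had a median of -0.41, with 1 on each side. Kcnj9, the most abundant of these, stood at 85.0 and 73.4 CPM against 117 and 133 CPM, with a log2 fold of -0.73 (SE 0.18, edgeR adjusted p = 0.217). Neto1, the more abundant of the 2 auxiliary subunits of kainate receptors, had a log2 fold of -0.70 (SE 0.20, edgeR adjusted p = 0.256), and Neto2 one of 0.91 (SE 0.41). The median of these 2 was 0.11, beside -0.04 for the kainate receptor genes.

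Shared sequence limits a few levels. For Grin2a, 11.6% of its 50-base runs occur in transcripts of other genes, and for each other subunit at most 0.727% do. Besides Grin1, genes on the other strand share, among others, 9.66% of the exonic bases of Grin2d, 9.60% of those of Grm2 and 4.98% of those of Gabra5. For the untested genes Grin3b and Grm6 such overlap covers 32.1% and 11.0% of the exonic bases. How reads that fit several genes were counted is not given in the sources used here.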

How the data were processed

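The authors deposited 1 table of raw counts per Ensembl gene for each of the 4 libraries, not normalized. Per the submitters' processing notes, FastQC 0.11.9, STAR 2.5.4b and featureCounts 1.6.0 were used with GRCm38 (mm10). Which annotation was used, whether strand was used and how multi-mapping reads were treated is not given in the sources used here. Per the labels, RNA with an integrity number above 8 was used.

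CPM was computed on library totals, and CPM per kb with union exonic lengths of GENCODE M21, which may not be the release used for counting. The test was a robust quasi-likelihood fit in edgeR 4.0.16 under R 4.3.3 (TMM scaling, genes kept by filterByExpr, 2-sided, Benjamini-Hochberg over 15816 genes, threshold 0.05, no covariate). The SE is the size of the log2 fold over the square root of F. The script was tested on simulated data. DESeq2 1.42.0, limma-voom (limma 3.58.1), other scalings and filters, a length offset, a replicate block and leaving out each library were the alternatives. The members and gene lists were chosen with earlier results of these data known. Values in every library are given for each subunit with an unadjusted p under 0.05 and for the 3 most abundant of each class, and the most abundant gene of each other list is named. Some genes that these rules name are not reported here, and sums, shares, counts and medians include them. Unnamed gene ids held at most 0.023% of a library. Sequences come from RefSeq (GRCm38.p6). Floors cover counting error only, as the labels mention no molecular identifiers.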

Additional observations from a re-analysis of the deposited data

How the results depend on the processing

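The summed ratios of 5 classes stayed below 1 under the alternatives run, and that of kainate genes ran from 0.797 to 1.20 on leaving out each library, while the number of genes passing the threshold depended on the filter, the tool and single libraries. Over all genes, 8 were called lower and 5 higher. These counts were 146 and 45 with no filter on low counts, 54 and 14 with a minimum mean CPM of 1, 462 and 298 with DESeq2, 38 and 9 with limma-voom, 46 and 11 with bias-adjusted dispersions, and 5 and 5 with the replicate block. With the length offset and the replicate block together, 3 were called lower. Leaving out each library in turn gave 3 to 71 lower and 2 to 52 higher. Across genes, deviations from the group mean correlated at -0.02 between libraries of the same replicate number, so no shared replicate effect was seen. Whether libraries were collected or processed as pairs cannot be told from this value. With the replicate block 0 subunits were called and their median log2 fold was -0.66.

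Subunits called lower, 0 in the test as described, were 4 with no filter on low counts (Gria1, Gria2, Grin2a and Grin2b), 2 with a minimum mean CPM of 1 (Gria1 and Grin2a), 12 with DESeq2, and 0 to 5 on leaving out each library. None was called higher under any of these alternatives. With each library left out in turn, the median log2 fold ran from -0.89 to -0.42 over all subunits, from -1.18 to -0.72 for AMPA, from -0.57 to 0.34 for kainate, from -0.93 to -0.65 for NMDA and from -1.02 to -0.31 for mGlu genes. The NMDA median was -0.94 with the length offset and -0.93 with the length offset and replicate block, and the kainate median was 0.031 on library totals. The sign turned for Grik5 (0.031 on library totals). On leaving out 1 library signs also turned for Grik5 (-0.57 to 0.56), Grm8 (-1.0003 to 0.34), Gria4 (-0.67 to 0.30), Gabrd (-0.99 to 0.14), Grik4 (-1.10 to 0.27), Gabrg3 (-1.26 to 0.48), Grik2 (-0.66 to 0.0026) and Grm7 (-0.62 to 0.0054). The cause was not tested. Fits that leave out 1 library take the spread of the lone library from the others. Depth limits the genes under 20 CPM, where SE values of log2 folds reached 1.19.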

Other observations

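Receptor subunits outside the classes above gave mixed values. Grid1, which encodes the delta glutamate receptor GluD1, a synaptic organiser, averaged 16.02 CPM ± 3.12 (SD, n = 2) with cuprizone and 28.2 CPM ± 0.893 (n = 2) in mock, with a log2 fold of -0.89 (SE 0.30, edgeR adjusted p = 0.308). Glrb, the anchoring subunit of glycine receptors, stood at 198 and 190.1 CPM in cuprizone and 204 and 281 CPM in mock libraries. Glra2, a glycine receptor subunit of the young brain, was at 0 counts in cuprizone replicate 1 and at 4.66, 6.06 and 20.5 CPM in the other libraries. Of the 14 genes in this list, 7 had enough counts for a test, and no gene of the list passed the edgeR threshold.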
